A study of Mus musculus with 4 samples.

Results

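The genes described here are 10 components of the cytosolic sensing of nucleic acids, taken by symbol from a fixed list, out of 23235 gene symbols in the deposited tables. All 10 were found, and all had a mean of at least 1 FPKM over the 4 libraries. FPKM is a number of sequenced fragments scaled for transcript length and library depth, so that levels can be compared between genes. Polyadenylated RNA came from primary fibroblasts of minced C57BL/6 mouse embryos, a culture that can hold several cell types, with 1 library per genotype. The genotypes were labelled as Wild-type, Gadd45-/-, G3 Terc-/- and G3 Gadd45-/-Terc-/- (dKO), and the series' design text names the first of these genes in full, as Gadd45a. They are called here wild type and the Gadd45a-labelled, G3 Terc-labelled and G3 dKO-labelled libraries. Terc encodes the RNA template of telomerase, G3 stands for the third generation, and Gadd45a is a stress gene with a role in DNA repair. The age of the embryos, their number per culture and the type of null allele are not given in the sources used here.

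Cells read RNA or DNA in the cytosol as a sign of infection or of damage to their own genome or mitochondria. The RNA helicases RIG-I (Ddx58) and MDA5 (Ifih1) signal through the mitochondrial adaptor Mavs and are modulated by LGP2 (Dhx58), while cytosolic DNA acts through cGAS and the endoplasmic reticulum adaptor STING (Tmem173). Both adaptors engage the kinases Tbk1 and IKK epsilon (Ikbke), which activate interferon regulatory factors and so the type I interferon genes. Zbp1 binds nucleic acids in the Z conformation and can start cell death, PKR (Eif2ak2) halts translation on double-stranded RNA, and Trex1 degrades cytosolic DNA. Several of these sensors are themselves induced by interferon.

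Promoter sequence is shown because several of these genes are known to be induced by interferon, and the interferon-stimulated response element (ISRE) is the known site of interferon-activated factors. RefSeq windows on the build GRCm38.p6, from 250 bases before to 50 bases after the annotated start, were matched for 7 of the 10 genes, Ddx58, Ifih1, Mavs, Tbk1, Ikbke, Trex1 and Eif2ak2. The promoters of Dhx58, Zbp1 and Tmem173 were not analysed here. The ISRE core was searched as GAAA, any 2 bases and GAAA, the gamma-activated site (GAS) core as TTC, any 3 bases and GAA, and a kappa B core as GGG, any 2 bases and TTTCC, each on both strands and with no overlap between matches of different motifs in these windows. Below, positions count from the annotated start as +1, the sequence runs 5′ to 3′ on the gene's strand, and capitals mark a match. Ddx58 (chr4:40239814-40240075, minus strand) is shown up to position +12, and its ISRE core lies at positions 3 to 12 on the opposite strand:
Ddx58: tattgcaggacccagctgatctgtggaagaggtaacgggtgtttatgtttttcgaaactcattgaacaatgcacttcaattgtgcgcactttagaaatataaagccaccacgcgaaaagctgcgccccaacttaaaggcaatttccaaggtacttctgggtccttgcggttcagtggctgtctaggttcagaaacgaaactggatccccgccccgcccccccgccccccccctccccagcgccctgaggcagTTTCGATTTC
Eif2ak2 (chr17:78882545-78882822, minus strand) is shown up to position +28, with a GAS core at -178 to -170 and an ISRE core at 19 to 28:
Eif2ak2: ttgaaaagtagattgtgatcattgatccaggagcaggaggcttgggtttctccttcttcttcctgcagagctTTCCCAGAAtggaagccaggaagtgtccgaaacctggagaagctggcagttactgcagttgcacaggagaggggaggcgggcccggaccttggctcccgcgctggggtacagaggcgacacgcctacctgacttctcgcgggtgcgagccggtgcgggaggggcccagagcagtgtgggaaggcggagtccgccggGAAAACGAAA
Ifih1 (chr2:62646206-62646233, minus strand) is shown from position 23 to 50, with the ISRE core at 33 to 42:
Ifih1: gaagagaatcGAAACAGAAAccgatctg
Mavs (chr2:131233813-131234062, plus strand) and Ikbke (chr1:131279564-131279813, minus strand), which have no match to these 3 motifs in their windows, are shown from -250 to -1:
Mavs: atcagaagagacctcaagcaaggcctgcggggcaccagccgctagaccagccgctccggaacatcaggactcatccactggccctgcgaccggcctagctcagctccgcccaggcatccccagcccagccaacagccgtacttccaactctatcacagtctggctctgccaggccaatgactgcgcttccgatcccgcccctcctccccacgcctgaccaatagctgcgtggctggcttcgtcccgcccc
Ikbke: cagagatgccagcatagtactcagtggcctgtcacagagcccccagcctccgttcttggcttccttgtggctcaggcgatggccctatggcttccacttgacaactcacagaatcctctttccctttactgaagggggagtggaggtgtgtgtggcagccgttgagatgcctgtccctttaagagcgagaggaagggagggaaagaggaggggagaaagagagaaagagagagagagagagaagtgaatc
The ISRE core was thus present for 3 of these 7 genes, against 3.44% of all 32851 promoter windows. The GAS core was present for 1 of 7, against 8.30% of windows, and the kappa B core for none, against 1.63% of windows. Tbk1 and Trex1 had none of the 3 motifs. A match is a description of letters, and the absence of a match says only that these letters are not in this window.

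The estimated depth was 19500000 to 19900000 fragments per library, with size factors from 0.977 to 1.01. The labels were checked on their own genes. Gadd45a stood at 22.9 FPKM in wild type, 33.9 in the Gadd45a-labelled library, 31.4 in the G3 Terc-labelled library and 45.1 in the G3 dKO-labelled library, so the transcript went against the Gadd45a labels and genotypes are given as labelled. The tables have no exon values to show whether the deleted part was transcribed. Terc was listed at 0.53 and 0.26 FPKM in the Terc-proficient libraries and at 0 in both G3 libraries. Values this low, in polyadenylated RNA, cannot settle the Terc labels. The Gadd45a-labelled library had the transcripts of male cells (Ddx3y 16.4 FPKM, Xist 0.154 FPKM) and the other 3 those of female cells (Xist 24.0 to 34.1 FPKM), so sex differed along with genotype there. All 10 fibroblast markers were at 1 FPKM or more in every library. The column headers carry the letter D for both Terc-proficient libraries and B for both G3 libraries, whose meaning no source gives; whatever it marks cannot be told apart from Terc status.

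Among the RNA helicases, Ddx58 stood at 7.27 FPKM in wild type, 9.76 FPKM in the Gadd45a-labelled library, 31.3 FPKM in the G3 Terc-labelled library and 12.1 FPKM in the G3 dKO-labelled library. Ifih1, the sensor of long double-stranded RNA, had levels of 1.82, 1.71, 12.3 and 2.63 FPKM in that order. Dhx58, which lacks the signalling domains of the other helicases, stood at 0.557, 1.07, 12.2 and 1.88 FPKM. The G3 Terc-labelled library was the highest for each helicase and the G3 dKO-labelled library the next, well apart from it. The level of Dhx58 was 0.0765 times that of Ddx58 in wild type and 0.391 times in the G3 Terc-labelled library, so the least abundant helicase differed the most in proportion. Dhx58 shared 141 exon bases with the antisense gene Dhx58os in GENCODE M21, and since the strand setting was not given its values are uncertain to that extent. In bulk RNA, fewer cells of a type and less RNA per cell cannot be told apart.

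Zbp1 had the widest range of the 10 genes. It stood at 0.177 FPKM in wild type, about 6 fragments, at 0.899 FPKM or about 32 fragments in the Gadd45a-labelled library, at 36.2 FPKM or about 1277 fragments in the G3 Terc-labelled library, and at 2.67 FPKM or about 95 fragments in the G3 dKO-labelled library. The highest library was thus 204-fold above the lowest, with a 95% counting interval of 96.5 to 575 that reflects the few fragments in wild type. Fragment numbers here are estimates from FPKM, transcript length and depth, and intervals cover counting error only, not differences between cultures. In wild type Zbp1 was the lowest of the 10 genes in level, and in the G3 Terc-labelled library it was the second highest, just under PKR.

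PKR (Eif2ak2) stood at 11.7 FPKM in wild type, 13.3 in the Gadd45a-labelled library, 37.1 in the G3 Terc-labelled library and 16.5 in the G3 dKO-labelled library. It was the most abundant of the 10 genes in the G3 Terc-labelled library and second in the other 3. The nuclease Trex1 had levels of 6.38, 7.38, 17.6 and 11.8 FPKM in that order, with the G3 dKO-labelled library closer to the highest library than for the helicases, Zbp1 and PKR. The exons of Trex1 and Atrip overlap by 1147 bases on the same strand in GENCODE M21, so fragments may be divided between these genes. That is more than the 1084 nt of the Trex1 transcript used for its fragment numbers, so all Trex1 values and intervals are uncertain. Atrip, a partner of the checkpoint kinase ATR, stood at 5.71, 6.17, 5.54 and 5.23 FPKM and did not follow the pattern of Trex1.

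Both adaptors and Tbk1 stayed within a 2-fold range over the 4 libraries. Mavs stood at 8.99 FPKM in wild type, 8.50 in the Gadd45a-labelled library, 13.8 in the G3 Terc-labelled library and 11.3 in the G3 dKO-labelled library. Tmem173 (STING) had levels of 22.9, 19.1, 15.5 and 23.2 FPKM in that order and was the only one of the 10 genes with its lowest value in the G3 Terc-labelled library. Tbk1, the kinase present in most cells, stood at 10.6, 12.4, 10.7 and 10.8 FPKM, with a highest value 1.17-fold above the lowest.

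Ikbke, the inducible relative of Tbk1, stood at 3.42, 3.10, 19.5 and 5.71 FPKM. The level of Ikbke was 0.322 times that of Tbk1 in wild type, 0.251 times in the Gadd45a-labelled library, 1.83 times in the G3 Terc-labelled library and 0.529 times in the G3 dKO-labelled library. Ikbke thus exceeded Tbk1 in 1 of the 4 libraries. The level of the sensor Ifih1 relative to its adaptor Mavs was 0.203, 0.201, 0.895 and 0.233 in the same order, so the sensor approached its adaptor in the G3 Terc-labelled library only, among these 4 libraries. On the opposite strand Ikbke overlaps the annotated genes Gm28913 and Gm28914 by 65 and 159 exon bases, and Eif2ak2 overlaps Gm26637 and n-R5s29 by 174 and 47, so both carry the same uncertainty as Dhx58.

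**Figure D1:**
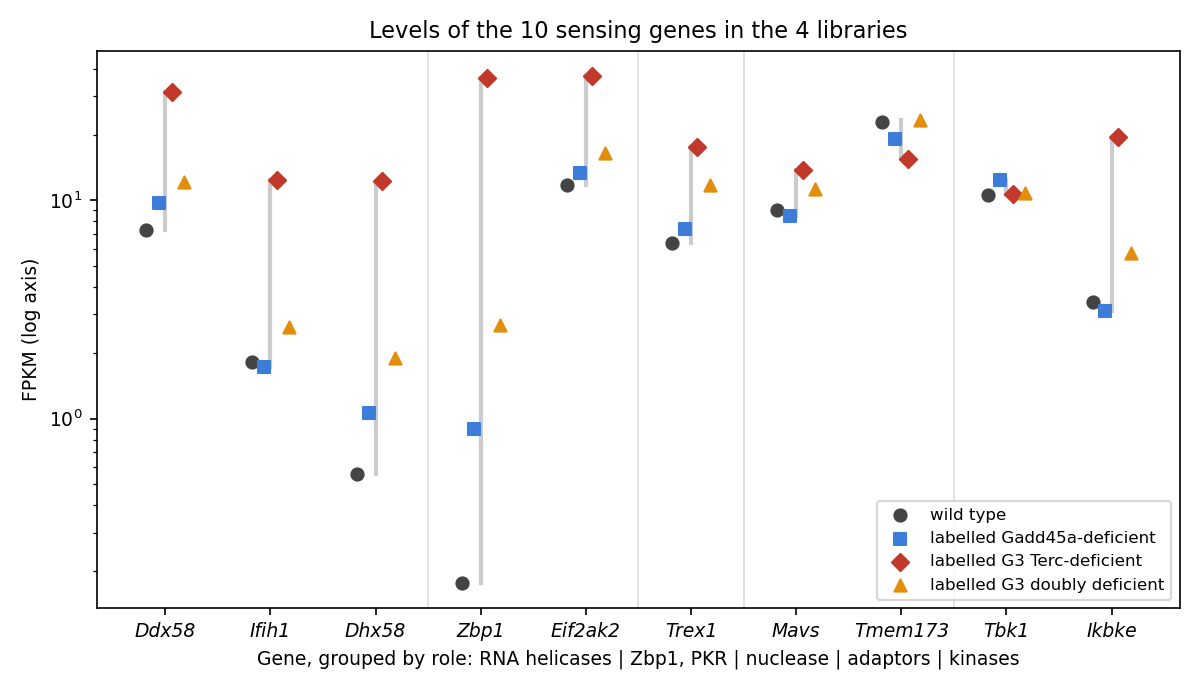
FPKM of each of the 10 genes on a log axis, 1 symbol per library, with grey bars from the lowest to the highest value and no error bars because each genotype has 1 library. The G3 Terc-labelled library is the highest for 8 of 10 genes, and Zbp1 spans 0.177 to 36.2 FPKM. The share of all symbols that are highest in that library is not given here.

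Seen together, the 10 genes were more even in level in the G3 Terc-labelled library. Their levels ran from 0.177 to 22.9 FPKM in wild type, a 129-fold range, and from 10.7 to 37.1 FPKM in the G3 Terc-labelled library, a 3.48-fold range. The low end in wild type was Zbp1 at about 6 fragments, with Dhx58 next at 0.557 FPKM or about 24 fragments. The width of the range there thus rests on few fragments. The range was 21.3-fold in the Gadd45a-labelled library and 12.3-fold in the G3 dKO-labelled library. Their median level was 6.83 FPKM in wild type, 7.94 in the Gadd45a-labelled library, 16.5 in the G3 Terc-labelled library and 11.1 in the G3 dKO-labelled library. The median of the 11587 symbols with a mean of at least 1 FPKM lay between 10.9 and 11.7 FPKM in the same libraries. STING was the most abundant of the 10 genes in 3 libraries and sixth in the G3 Terc-labelled library, where Tbk1 was the lowest.

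What goes with G3 Terc deficiency was addressed by comparing the G3 Terc-labelled library with wild type. Sensors, the nuclease and the inducible kinase were higher, while both adaptors and Tbk1 were not past the size rule, which is a difference of at least 1 in log2(FPKM + 1), a 2-fold difference of FPKM + 1. Of the 10 genes 7 were higher and none lower by this rule, against a background of 5.7% higher and 3.32% lower among 22492 symbols compared. Among the 11587 symbols with a mean of at least 1 FPKM, as all 10 genes had, 9.93% were higher and 6.23% lower. The median difference of the 10 genes was 1.77 on this scale, against 0.01 over those symbols. No test was possible with 1 library per genotype, and no difference here has a replicate check. The proliferation marker Mki67 stood at 27.9 FPKM in wild type, 24.1 in the Gadd45a-labelled library, 2.97 in the G3 Terc-labelled library and 8.69 in the G3 dKO-labelled library, lowest where the sensors were highest. Its part in the result was not tested.

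In this comparison Zbp1 had a difference of 4.98 on the log2(FPKM + 1) scale, the 14th highest of all 22492 symbols. Dhx58 followed with 3.09, a 22.0-fold ratio of FPKM with a 95% counting interval of 14.6 to 34.6. Ifih1 differed by 2.24 (6.78-fold), Ikbke by 2.22 (5.71-fold), Ddx58 by 1.96 (4.30-fold), Eif2ak2 by 1.58 (3.17-fold) and Trex1 by 1.33 (2.75-fold). The difference was 0.57 for Mavs, with a counting interval of 1.37 to 1.72 for its 1.53-fold ratio. Tmem173 lay in the opposite direction at -0.53, a ratio of 0.677 with a counting interval of 0.611 to 0.750. For Tbk1 the ratio was 1.00 with a counting interval of 0.895 to 1.13, so a difference within those bounds was not detectable at this depth.

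**Figure D2:**
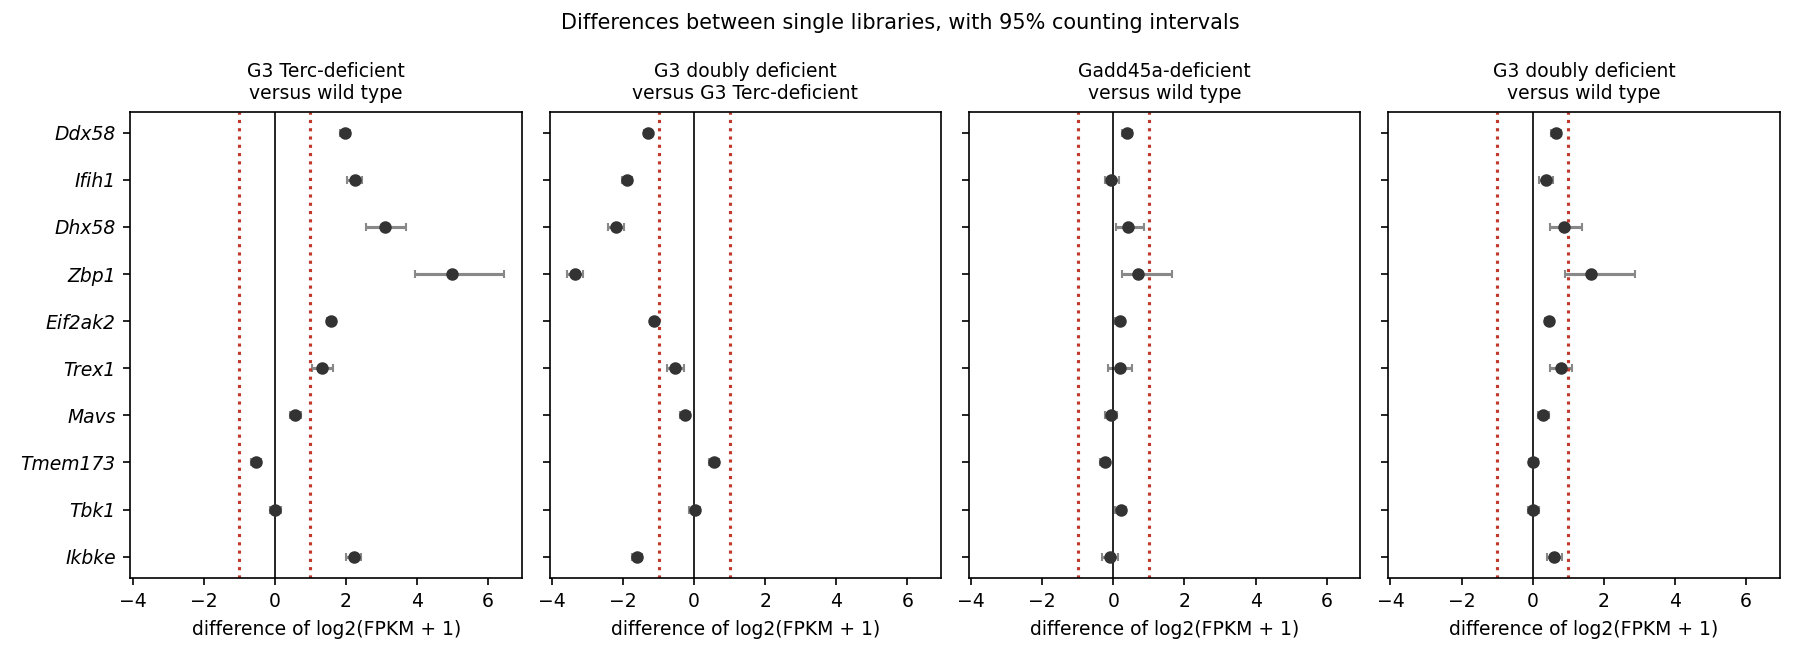
Differences of log2(FPKM + 1) for the 10 genes in 4 comparisons of single libraries. Bars carry the 95% counting interval of the FPKM ratio onto this scale with the second library's FPKM held fixed, so they are approximate. They are too wide where the second library has few fragments, as for Zbp1 and Dhx58 against wild type. They do not cover differences between cultures. Dotted lines mark the size rule, and 7 genes lie beyond it in the first panel and 6 in the second.

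What the added Gadd45a label goes with in G3 cells was addressed by comparing the G3 dKO-labelled library with the G3 Terc-labelled library. All 3 helicases, Zbp1, PKR and Ikbke were lower, with none of the 10 genes higher by the rule. That makes 6 of 10 genes lower, against a background of 2.79% lower and 0.849% higher among all symbols compared, and of 4.78% lower among symbols with a mean of at least 1 FPKM. The median difference of the 10 genes was -1.21, against -0.03 over those symbols. This comparison and the previous one share the G3 Terc-labelled library, so a value that is high in that library by itself sets opposite directions in both.

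Zbp1 was 13.6-fold lower in the G3 dKO-labelled library, with a 95% counting interval of 11.02 to 16.9. Dhx58 was 6.49-fold lower (interval 5.14 to 8.28), Ifih1 4.69-fold lower (interval 4.12 to 5.36) and Ikbke 3.42-fold lower (interval 3.03 to 3.86). Ddx58 and Eif2ak2 were 2.58-fold and 2.25-fold lower, and Eif2ak2, at -1.12 on the log2(FPKM + 1) scale, was the called gene nearest to the size rule. Trex1 differed by -0.54 and Mavs by -0.27, short of the rule. Tmem173 differed by 0.55 in the opposite direction, and Tbk1 by 0.02 with a ratio of 1.01.

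**Figure D3:**
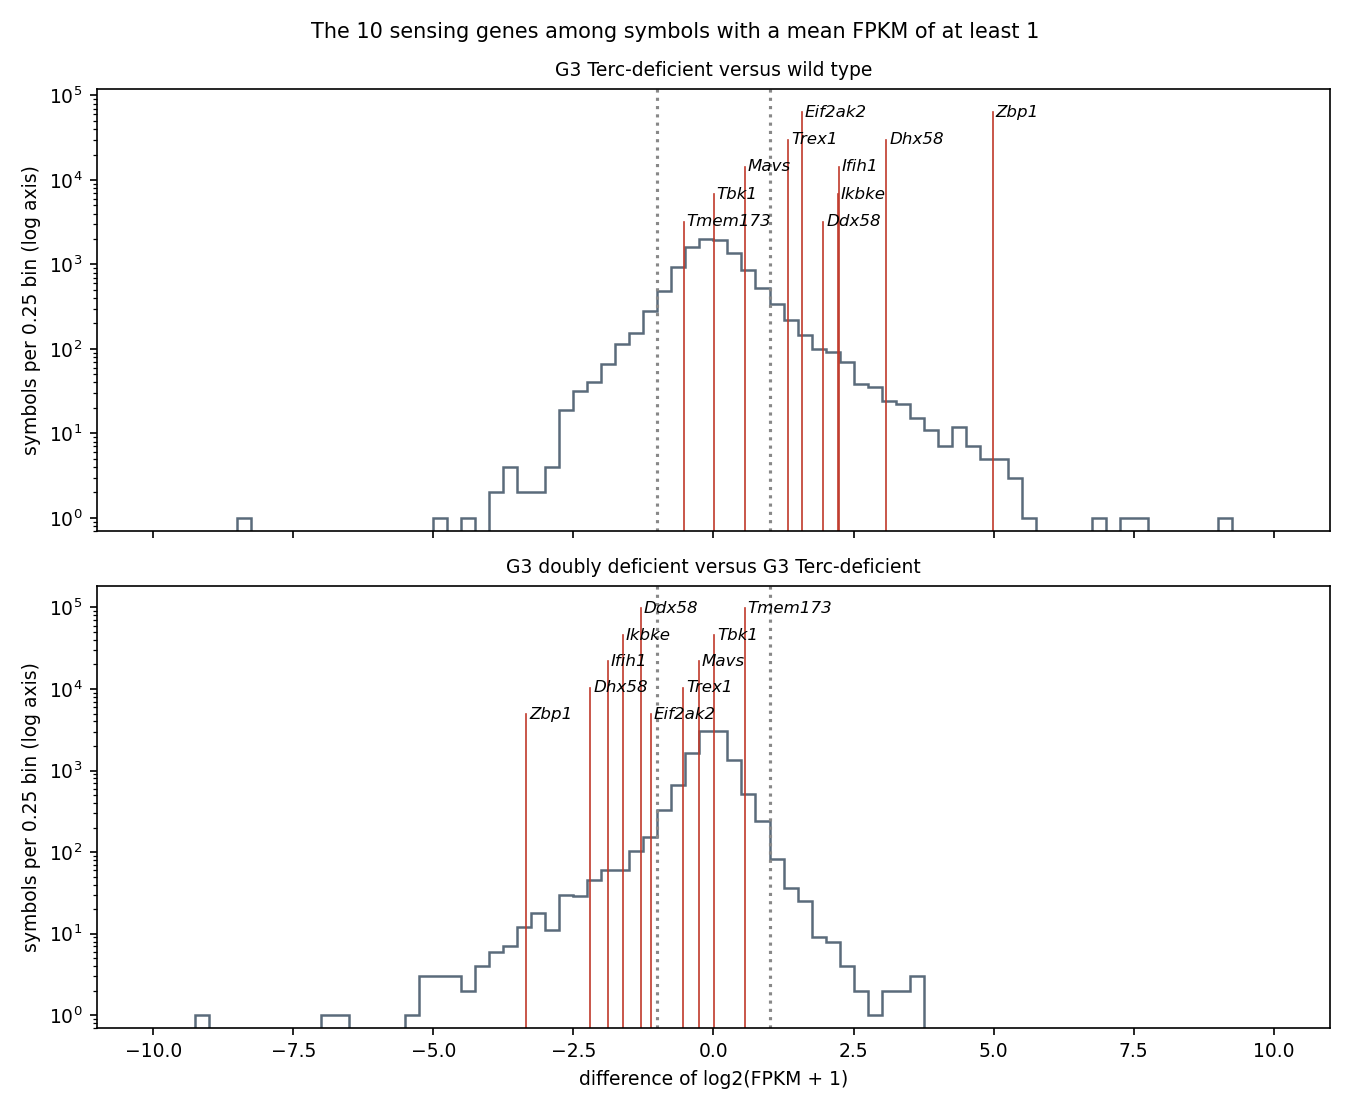
Numbers of symbols with a mean of at least 1 FPKM in bins of the difference of log2(FPKM + 1), on a log axis, with vertical red lines at the 10 genes (the height of a line has no meaning) and dotted lines at the size rule. Zbp1 lies farthest out in both panels, at 4.98 and -3.34, and Tbk1 at the centre of both.

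What the Gadd45a label goes with in Terc-proficient cells was addressed by the Gadd45a-labelled library and wild type. None of the 10 genes was higher or lower by the size rule, against a background of 0.178% higher and 0.133% lower. Of the 10 genes 6 had a difference above 0 and 4 below, with a median of 0.18 against -0.03 over symbols with a mean of at least 1 FPKM. Without the share of all symbols above 0, which is not given here, these directions are no result about the genes. The largest difference was again that of Zbp1, 0.69 on the log2(FPKM + 1) scale. The ratio of its FPKM was 5.07 with a 95% counting interval of 2.16 to 15.3, at about 6 and 32 fragments. Dhx58 differed by 0.41 and Ddx58 by 0.38, and the counting intervals of Ifih1, Mavs, Ikbke and Trex1 held a ratio of 1. With the sex of the embryo differing as well, the label and sex cannot be told apart here.

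The G3 dKO-labelled library was also set against both Terc-proficient libraries. Against wild type all 10 genes had a difference above 0, from 0.02 for Tmem173 to 1.64 for Zbp1, with a median of 0.53 against -0.04 over symbols with a mean of at least 1 FPKM. The share of all symbols with a difference above 0 is not given here, so this count of directions is no result about these genes. Only Zbp1 passed the size rule, as 1 of 10 genes higher and none lower, against a background of 2.02% higher and 1.55% lower. The counting intervals of Tmem173 and Tbk1 held a ratio of 1, and those of the other 8 genes did not. Against the Gadd45a-labelled library none of the 10 genes was past the rule, against a background of 1.33% higher and 1.29% lower. The differences there ran from -0.18 for Tbk1 to 0.95 for Zbp1, with a median of 0.40. These comparisons share the G3 dKO-labelled library, and the last one compares female with male cells.

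Other genes of these pathways were taken from 9 lists chosen by role, with earlier results of these data known. The lists hold 107 distinct symbols found in the tables, 90 of them with a mean of at least 1 FPKM. In the G3 Terc-labelled library against wild type 18 of these 90 passed the rule upward and 4 downward, with a median difference of 0.15. The background over all symbols with a mean of at least 1 FPKM was 9.93% higher and 6.23% lower, so the number lower was not above it. In the G3 dKO-labelled library against the G3 Terc-labelled library 13 were lower and 1 higher, with a median of -0.22, against a background of 4.78% lower and 1.51% higher over the same symbols. Against wild type the Gadd45a-labelled library had 0 higher and 1 lower, against 0.319% and 0.19%. Some DNA sensors, named below, reached the mean of at least 1 FPKM only through 1 library, so their calls in these counts follow in part from that filter. By list, the median difference between the G3 Terc-labelled library and wild type was 1.00 for the transcription factors, 0.32 for helicase and MAVS regulators, 0.29 for STING regulators, 0.23 for kinase scaffolds and 0.22 for interferon receptors. It was 0.11 for nucleases and editors, 0.03 for the death pathway below Zbp1, 0.02 for DNA sensors and -0.13 for PKR partners, beside 0.01 over all symbols with a mean of at least 1 FPKM. In the G3 dKO-labelled library against the G3 Terc-labelled library the medians ran from -0.76 for the transcription factors to 0.09 for PKR partners, beside -0.03.

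Among 15 measured DNA sensors 6 were higher and 1 lower in the G3 Terc-labelled library against wild type, and 6 were lower and none higher in the G3 dKO-labelled library against it. The background was 9.93% higher and 6.23% lower in the first comparison, which 1 lower of 15 does not stand apart from, and 4.78% lower in the second. The higher ones all belong to the Ifi200 (PYHIN) family of DNA-binding proteins, which lie side by side and resemble each other, so their values are uncertain. In the order wild type, Gadd45a-labelled, G3 Terc-labelled and G3 dKO-labelled, Mndal had 0.270, 0.294, 13.9 and 1.44 FPKM. Ifi203 stood at 0.781, 0.601, 18.8 and 1.38 FPKM, Pyhin1 at 0.0156, 0.0456, 7.74 and 0.0913 FPKM, and Ifi204 at 4.02, 2.32, 31.9 and 3.81 FPKM. The lower one, Ifi202b, was chosen after its values were seen, with 4.79 FPKM in wild type and a listing at 0 in the other 3 libraries. Ifi203, Ifi205, Mndal and Pyhin1 reached the mean of at least 1 FPKM only through the G3 Terc-labelled library, and Ifi202b only through wild type. Their calls thus follow in part from that filter, and counts that hold them are no support for a pattern. cGAS, listed under its older symbol E330016A19Rik and chosen after its values were seen, stood at 1.38, 1.63, 0.748 and 1.19 FPKM, so the DNA sensor upstream of STING did not share the pattern of the RNA helicases.

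Of 9 transcription factors 5 were higher and none lower in the G3 Terc-labelled library against wild type, against a background of 9.93% higher and 6.23% lower, with a median of 1.00. In the G3 dKO-labelled library against it 3 of 9 were lower, beside 4.78% of symbols. Irf7, which the sensor kinases phosphorylate, stood at 2.88, 3.66, 110 and 6.46 FPKM in the order of libraries used above. Stat2, which carries interferon signals to the nucleus, stood at 7.72, 10.3, 51.4 and 16.5 FPKM. Irf9, which binds the ISRE, stood at 11.01, 12.01, 25.8 and 14.7 FPKM. Irf3, the other substrate of these kinases, was chosen after its values were seen and stood at 17.9, 17.2, 19.0 and 17.3 FPKM. Irf5, also chosen after its values were seen, was only just past the rule in the G3 Terc-labelled library against wild type, at 1.002.

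The interferon genes themselves were hardly seen. All 10 listed interferon ligand genes were listed at 0 in 3 libraries, and 9 of 10 in the G3 Terc-labelled library. Ifnb1, chosen after its values were seen, stood there at 0.0895 FPKM, about 1 fragment, under the 0.277 FPKM that 3 fragments would give. A level of interferon RNA below that was not detectable at this depth. Of 4 measured receptor and receptor kinase genes 1 was higher in the G3 Terc-labelled library against wild type, too few to read against the background of 9.93%. It was the receptor chain Ifnar2, at 26.8, 27.4, 68.0 and 31.6 FPKM in the same order. Its partner Ifnar1 stood at 11.97, 12.2, 14.1 and 11.1 FPKM, and the receptor kinases Jak1 and Tyk2 differed by 0.20 and 0.21 in the G3 Terc-labelled library against wild type.

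Regulators of the helicases, scaffolds and STING partners were mostly short of the size rule, and their counts lay near the background of 9.93% higher and 6.23% lower, so they are no result about these lists. Of 14 measured helicase and MAVS regulators 2 were higher, Ifit3 (1.48, 1.98, 50.5 and 4.66 FPKM) and the deubiquitinase A20, Tnfaip3 (1.09, 1.59, 9.96 and 0.915 FPKM). The ubiquitin ligases that activate RIG-I were below the rule, with Trim25 at 12.4, 14.5, 24.0 and 12.6 FPKM and Rnf135 at 2.95, 2.71, 6.21 and 3.26 FPKM. Of 15 kinase scaffolds and adaptors only Tbkbp1, a scaffold of Tbk1, was higher, at 6.85, 6.04, 18.9 and 9.44 FPKM. The next largest differences in this list were 0.68 for Ikbkg, -0.49 for Fadd and 0.45 for Traf2. Of 9 STING regulators 1 was lower, Insig1, which is also a sterol-regulated gene, with 99.7, 86.7, 25.1 and 56.1 FPKM. The STING ligase Trim56 differed by 0.86, Zdhhc1 by 0.88 and Ddx3x by -0.80 in the G3 Terc-labelled library against wild type.

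Among 12 measured nucleases and editors that limit the ligands of these sensors 2 were higher and 1 lower in the G3 Terc-labelled library against wild type, near the background of 9.93% higher and 6.23% lower. The RNA editor Adar, which marks own double-stranded RNA, stood at 9.79, 10.0, 22.9 and 11.8 FPKM and the cytidine deaminase Apobec3 at 1.43, 1.95, 3.86 and 3.28 FPKM. Apobec3, with a difference of 1.001, was only just past the size rule. Rnaseh2b, a subunit of the enzyme that removes ribonucleotides from DNA, was lower, at 14.8, 11.7, 4.97 and 8.56 FPKM, and the nucleotide hydrolase Samhd1 stood at 21.03, 24.4, 13.4 and 16.0 FPKM. Around PKR none of 9 genes was higher and 1 was lower, also near that background, its inhibitor Tarbp2 at 25.3, 23.7, 11.7 and 17.1 FPKM. The PKR substrate Eif2s1 differed by -0.58, the phosphatase subunit Ppp1r15b by -0.66 and the PKR inhibitor Dnajc3 by -0.36. In the death pathway below Zbp1 1 of 5 genes was higher, too few to read against the 9.93% of symbols. It was the executioner Mlkl, at 6.56, 7.88, 20.8 and 9.10 FPKM. Its kinase Ripk3 stood at 58.2, 69.1, 59.4 and 66.8 FPKM, and Ripk1 differed by 0.07.

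**Figure D4:**
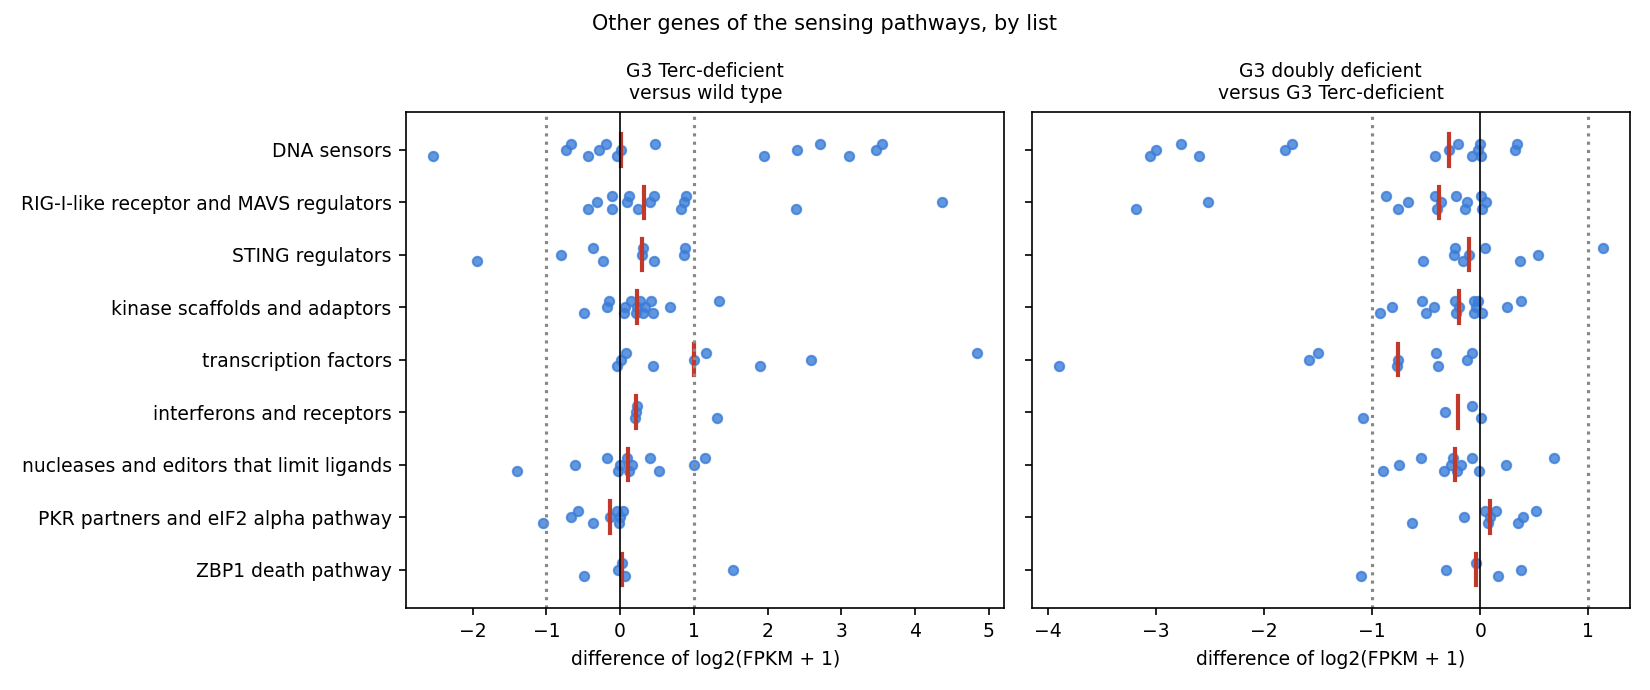
Differences of log2(FPKM + 1) for the measured genes of each list, 1 point per gene (vertical offsets only separate points), with red bars at list medians and dotted lines at the size rule. The transcription factor list has the highest median in the left panel, 1.00, and the points farthest out in either panel belong to Irf7, at 4.84 and -3.90.

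Among 11577 other symbols with a mean of at least 1 FPKM, the 5 whose centred log2(FPKM + 1) profile over the 4 libraries lay nearest to the median profile of the 10 genes were Sprr1a, Slc31a2, Actn3, A330021E22Rik and Raph1. Their Euclidean distances ran from 0.0793 to 0.114 on that scale, over 4 libraries only. Raph1 stood at 8.27, 8.89, 27.9 and 11.1 FPKM and Slc31a2 at 5.06, 5.99, 20.6 and 7.64 FPKM in the order used above. Sprr1a stood at 0.350, 0.512, 3.20 and 0.941 FPKM, Actn3 at 0.580, 0.698, 4.21 and 1.13 FPKM, and A330021E22Rik at 0.893, 1.38, 5.40 and 1.68 FPKM. Sprr1a and Actn3 reached the mean of at least 1 FPKM only through the G3 Terc-labelled library. Their place among the nearest thus follows in part from that filter.

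Markers of other cells were read beside these values. Of 10 macrophage and monocyte markers 2 to 5 were at 1 FPKM or more, and their summed level was 5.70 FPKM in wild type, 8.31 in the Gadd45a-labelled library, 9.57 in the G3 Terc-labelled library and 22.0 in the G3 dKO-labelled library. In the G3 Terc-labelled library, where the sensors were highest, 5 of the 10 were above wild type and 5 below. Cd14 was highest there, at 0.792, 1.59, 3.998 and 2.33 FPKM in the order used above. Cd68 (1.72 and 2.21 FPKM), Csf1r (0.363 and 0.828 FPKM) and Lyz2 (2.101 and 2.44 FPKM) were also above wild type there, and higher again in the G3 dKO-labelled library. C1qa and C1qb were listed at 0 in the G3 Terc-labelled library, Fcgr1 at 0 in both Terc-proficient libraries, and Ptprc, the pan-leukocyte marker, was at 0.0795 FPKM or less in all 4. Of 6 dendritic cell markers Bst2, which is also interferon-induced in other cells, stood at 59.1, 109, 949 and 81.1 FPKM, and the other 5 summed to 0.616 to 1.92 FPKM, with Flt3 listed at 0 in all 4. The 6 lymphocyte markers summed to 0.298 FPKM or less and the 5 endothelial markers to 1.34 to 2.01 FPKM. The 5 epithelial markers summed to 8.69 FPKM in wild type and 1.67 to 2.66 FPKM in the other libraries. The 5 neural markers summed to 44.7 to 102.6 FPKM and the 5 skeletal muscle markers to 64.1 to 138.7 FPKM, both highest in the G3 dKO-labelled library. These highest sums were mostly Tubb3 (38.7 FPKM in wild type, 77.0 in the G3 dKO-labelled library) and Acta1 (38.0 and 120 FPKM). Nes was also above wild type there, while Mtap2, Sox2, Sox10, Des, Myod1, Myog and Myh3 were not. The 10 fibroblast markers summed to 7421 FPKM in the G3 Terc-labelled library and to 12601 to 13550 FPKM in the other libraries. Fn1 (1417 FPKM in wild type, 1708 in the G3 Terc-labelled library) and Pdgfra (33.2 and 37.1 FPKM) were above wild type there. The others were below, among them Col1a1 (4270 and 1697 FPKM), the most abundant in wild type. The part of these marker differences in the sensor values was not tested.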

How the data were processed

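The labels' protocols describe polyadenylated RNA of 4 fibroblast preparations, 1 library each. For every gene symbol the authors deposited 1 FPKM value per library. TopHat2 2.1.1, Cufflinks 2.2.1 and the build mm9 are named without roles, per the submitters' processing notes; the annotation, the strand setting and any filters are not given in the sources used here. Of 23235 symbols, 743 of short non-coding RNA were left out, leaving 22492.

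Differences of log2(FPKM + 1) were computed between libraries in 5 comparisons (Python 3.11.15, numpy 2.4.6, pandas 2.3.3, scipy 1.17.1, matplotlib 3.10.9), with a pseudocount of 1 FPKM that shrinks differences of low genes. A difference of at least 1 in size was called. No p-value was computed. Depth was estimated from genes of 1500 to 8000 nt with 1 annotated transcript in GENCODE M21 and FPKM up to 0.05, as the step at which values are whole multiples of 1 fragment; 77.9% to 80.2% of values lay within 0.1 of a whole number after 200 nt were taken off each length. Estimated fragments gave exact binomial 95% intervals of ratios. On the log2(FPKM + 1) scale the bounds of a ratio were applied to the second library's FPKM, taken as fixed, so intervals on that scale are approximate. The difference and depth steps were tested on simulated data.

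Named are the 10 genes, up to 4 measured genes per pathway list with the largest difference between the G3 Terc-labelled library and wild type, the 5 nearest profiles, and the check genes; 1 gene that this rule names is not reported here. Of the listed symbols, 1 had no match. The genes and lists were chosen with earlier results of these data known. Alternatives were a pseudocount of 0.1 FPKM, median-of-ratios scaling, quantile normalization, a 1.5-fold size rule and a mean FPKM minimum of 1.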

Additional observations from a re-analysis of the deposited data

Results flagged for a closer look

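For 6 of the 10 genes the difference that goes with the Gadd45a label lay in one direction in Terc-proficient cells and in the other in G3 cells. The share of all symbols with opposite directions is not given here, so this count is no result about these genes. The Terc-proficient libraries also differ in sex, so label and sex cannot be told apart there. The G3 difference minus the Terc-proficient difference, on the log2(FPKM + 1) scale, was -4.03 for Zbp1, -2.61 for Dhx58, -1.68 for Ddx58, -1.30 for Eif2ak2, -0.72 for Trex1 and 0.80 for Tmem173. The difference between the backgrounds was not tested, since each genotype had 1 library. The Terc-proficient differences behind it were small, from -0.25 for Tmem173 to 0.69 for Zbp1, and for Trex1 the counting interval held a ratio of 1. The other 4 genes had the same direction in both backgrounds. Their G3 difference minus the Terc-proficient difference was -1.82 for Ifih1, -1.51 for Ikbke, -0.20 for Mavs and -0.19 for Tbk1. For Ifih1, Ikbke and Mavs the counting interval held a ratio of 1 in Terc-proficient cells, and for Tbk1 in G3 cells. The shared direction is thus not settled for these genes.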

How the results depend on the processing

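The counts of 7 genes higher in the G3 Terc-labelled library against wild type and 6 lower in the G3 dKO-labelled library against it were 7 and 6 under each of 4 alternatives (pseudocount, size factors, quantile normalization, 1.5-fold rule). The share of all symbols higher in the first comparison was 12%, 5.66%, 4.81% and 11.7% in that order, beside 5.7% by the main rule. The share lower in the second comparison was 7.22%, 2.64%, 2.43% and 6.75%, beside 2.79%. The pseudocount of 0.1 FPKM gave 1 gene higher in the Gadd45a-labelled library against wild type, 1 in the G3 dKO-labelled library against it and 2 against wild type, instead of 0, 0 and 1, with 1.65%, 5.52% and 6.42% of all symbols higher. The 1.5-fold rule gave 1, 3 and 5, with 1.02%, 4.77% and 5.83% of all symbols. The other 34 of 40 counts stayed within 1.5 times, but most of these were counts of 0 that stayed at 0, which say little about stability. Of 50 differences of single genes none changed sign with the pseudocount of 0.1 FPKM or with size factors. With quantile normalization 1 did, that of Tbk1 between the G3 Terc-labelled library and wild type, which was not called. With the pseudocount of 0.1 FPKM 11 of 50 left their approximate interval on the log2(FPKM + 1) scale. The largest move from the reported value was 2.05 on the log2 scale. Restricting symbols to a mean of at least 1 FPKM moved 9 of 10 background shares by more than 1.5 times, since silent genes then leave the total. No paired analysis was possible because each genotype has 1 library. Depth limits Zbp1 and Dhx58 in wild type, at about 6 and 24 fragments, and the interferon genes.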
